A study of Mus musculus with 12 samples.

Results

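Messenger RNA levels of 40 listed genes of mitosis and the G2/M phase were compared between mouse neural cells lacking p53 and lines made from them with an oncogenic HRas. Members are the listed genes with a probe set that is assigned to a single gene, and each gene was read from the brightest such probe set, by its mean across the 12 arrays. That held for 39 of 40 genes, out of 18193 genes in all. Cyclin B1 (Ccnb1) had no such probe set and was not analysed here. All 39 passed the filter on low signal, and none was near that level, since their lowest value on any array was 7.06 on the log2 scale against a filter level of 5.18.

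Cells enter mitosis when cyclin-dependent kinase 1, bound to A- and B-type cyclins, is activated by Cdc25 phosphatases. Polo and Aurora kinases then build the spindle, and the checkpoint proteins hold back the anaphase-promoting complex until every chromosome is attached. That complex destroys cyclin B and securin, and kinesins and a contractile ring divide the cell. Most genes of this set are transcribed periodically with a peak in G2 and M, through B-Myb, FoxM1 and repressor complexes that bind their promoters, and p53 is known to restrain many of them. Their messages are therefore used as a measure of how much of a culture is dividing.

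The 6 groups held 2 arrays each. NSC were neural stem cells taken from the telencephalon of BL6 mice at embryonic day 14.5, OPC were oligodendrocyte precursor cells and AST were astrocytes, and every group was p53-/-. NSC grew as floating spheres in medium free of serum with PDGF and bFGF. AST came from NSC cultures kept for 3 weeks with 10% fetal calf serum, and OPC from NSC grown with PDGFAA at 10 ng/ml, bFGF at 2 ng/ml and 0.25% serum and then enriched by immunopanning. NSCL61, OPCL61 and ASTL61 were stable lines derived from these cells with the plasmids pCMS-EGFP-HRasL61 and pBabe-neo, selected in neomycin at 0.5 mg/ml and sorted for GFP. The sources used here name no vector control, no number of clones and no separate cultures behind the replicates, so transfection and selection cannot be told apart from HRasL61, and p-values measure only the spread between these arrays. A culture with more dividing cells and a culture with more message per dividing cell cannot be told apart either.

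The marker genes went against some labels. Sox2, which marks neural stem cells, lay at 4.41 and 6.79 in NSC and at 10.07 or above on the other 10 arrays. All 8 fibroblast and pericyte markers were above 5.18 in NSC, and their summed log2 signal was 88.8 to 92.2 in NSC, 67.1 to 72.2 in AST, 75.3 to 77.5 in ASTL61, 41.4 to 41.8 in NSCL61, 37.1 to 38.0 in OPC and 38.7 to 41.7 in OPCL61. The sum of the 8 astrocyte markers was highest not in AST but in OPC, at 63.5 to 66.4, against 51.7 to 53.1 in OPCL61 and 47.7 to 51.2 in the other groups. Gfap, the astrocyte filament, was at 5.41 and 5.73 in AST and at 7.73 and 6.07 in OPC, and Aldoc, a glycolytic enzyme of astrocytes, was at 13.52 and 13.58 in OPC and 5.34 and 5.69 in AST. Gja1 of the same list went the other way, at 11.80 and 11.67 in AST and 10.67 and 9.55 in OPC. The sum of the 7 OPC markers was 73.6 to 76.0 in OPC, 45.9 to 49.3 in OPCL61, 42.7 to 43.5 in NSC and 34.2 to 36.2 in the rest. Olig2, of the oligodendrocyte lineage, was at 12.31 and 12.24 in OPC, 6.82 and 5.90 in OPCL61 and no higher than 3.01 elsewhere, whereas Pdgfra, the PDGF receptor of precursors, was at 10.52 and 10.77 in NSC and 11.29 and 11.85 in OPC. Of the 6 microglia and the 5 endothelial markers, 1 of each exceeded 5.18 in every group. These marker levels move with the comparisons of lines with parents, of the parents with each other and of the lines with each other, and their part in the results was not tested.

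Promoters of many of these genes share sequence elements, and 6 are shown because they belong to genes whose levels carry the results. RefSeq promoters (build GRCm38.p6) were matched for 32 of the 39 members, in 35 windows of 250 bases before a transcription start. The elements searched on both strands were the cell cycle homology region, written TTTGAA or TTCGAA, and the CCAAT box bound by NF-Y. At least 1 TTTGAA or TTCGAA was found in 40.0% of the members' windows and in 17.1% of all 32851 windows. At least 1 CCAAT was found in 77.1% and 33.8%, and at least 2 matches in 48.6% and 10.1%. A CCAATTGG counts as 2 matches, since it reads CCAAT on each strand. Capitals mark these matches, and a match is a description of letters, not a binding site. The 150 bases before the start are given for Ube2c (chr2:164769779-164769928, plus strand), Cdk1 (chr10:69352913-69353062, minus strand), Top2a (chr11:99024190-99024339, minus strand), Cdc20 (chr4:118437344-118437493, minus strand) and Anln (chr9:22389207-22389356, minus strand). For Ccnb2 (chr9:70421555-70421804, minus strand) 250 bases are given, because its TTTGAA lies 167 bases before the start.
Ube2c: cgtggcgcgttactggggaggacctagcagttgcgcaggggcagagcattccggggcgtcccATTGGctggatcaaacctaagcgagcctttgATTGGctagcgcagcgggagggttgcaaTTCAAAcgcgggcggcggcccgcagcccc
Cdk1: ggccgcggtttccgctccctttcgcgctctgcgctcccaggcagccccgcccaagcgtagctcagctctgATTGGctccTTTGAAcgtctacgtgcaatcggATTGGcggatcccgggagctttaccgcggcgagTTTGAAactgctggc
Top2a: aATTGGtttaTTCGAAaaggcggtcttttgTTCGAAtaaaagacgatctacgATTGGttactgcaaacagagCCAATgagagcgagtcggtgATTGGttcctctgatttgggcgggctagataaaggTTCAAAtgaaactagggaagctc
Cdc20: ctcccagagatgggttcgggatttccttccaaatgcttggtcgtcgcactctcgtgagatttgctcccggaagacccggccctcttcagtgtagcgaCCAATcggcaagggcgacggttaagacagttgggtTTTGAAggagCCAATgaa
Ccnb2: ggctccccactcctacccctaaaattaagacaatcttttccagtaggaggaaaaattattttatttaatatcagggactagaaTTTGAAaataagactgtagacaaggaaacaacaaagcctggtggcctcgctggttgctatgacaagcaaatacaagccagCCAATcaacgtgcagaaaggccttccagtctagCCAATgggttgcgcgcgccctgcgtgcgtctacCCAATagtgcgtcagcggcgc
Anln: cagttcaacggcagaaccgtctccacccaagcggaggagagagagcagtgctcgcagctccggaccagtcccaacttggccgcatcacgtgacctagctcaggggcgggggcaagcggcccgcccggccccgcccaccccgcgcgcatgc
Ube2c, Cdk1, Top2a and Cdc20 carry their nearest match of TTTGAA or TTCGAA 29, 15, 23 and 18 bases before the start. Ccnb2 has 3 CCAAT boxes, 21, 54 and 87 bases before it. The Anln window holds none of these letters over its 250 bases. Ccnb2 and Anln were the members with the largest differences between groups.

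On the level of the whole set, NSC were the lowest group and the replicates of some groups stood apart. The mean log2 signal over the 39 genes was 9.60 and 9.59 in NSC, 9.90 and 10.03 in NSCL61, 10.17 and 9.76 in OPC, 10.07 and 10.16 in OPCL61, 10.27 and 10.09 in AST and 10.20 and 9.70 in ASTL61. OPC replicate 1 exceeded replicate 2 in 39 of 39 genes, by a median of 0.34, and ASTL61 replicate 1 exceeded replicate 2 in 39 of 39, by a median of 0.48. AST replicate 1 was above replicate 2 in 36 of 39 and NSCL61 replicate 2 above replicate 1 in 34 of 39. Over all 12835 genes tested, replicate 1 was above replicate 2 in 53.0% for OPC, 50.9% for ASTL61, 52.1% for AST and 54.5% for NSCL61. In these 4 groups most members thus moved the same way between replicates. So they did in OPCL61, where replicate 1 was above replicate 2 in 10 of 39, against 49.9% of all genes, with a median difference of -0.11. In NSC replicate 1 was above in 21 of 39, against 50.7% of all genes, with a median difference of 0.00. ASTL61 replicate 1 also correlated more closely over all genes with AST replicate 1 (Pearson's r = 0.994) than with ASTL61 replicate 2 (r = 0.984), and AST replicate 1 more closely with it than with AST replicate 2 (r = 0.993).

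**Figure D1:**
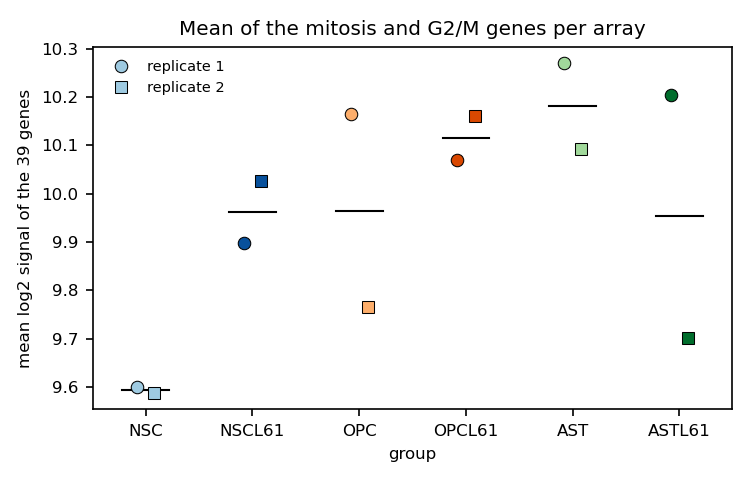
Mean log2 signal of the 39 mitosis and G2/M genes on each array (vertical axis) by group (horizontal axis), with circles for replicate 1, squares for replicate 2 and bars for the mean of both. NSC arrays lie lowest at 9.60 and 9.59, and the replicates differ most in OPC (10.17 and 9.76) and ASTL61 (10.20 and 9.70).

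**Figure D2:**
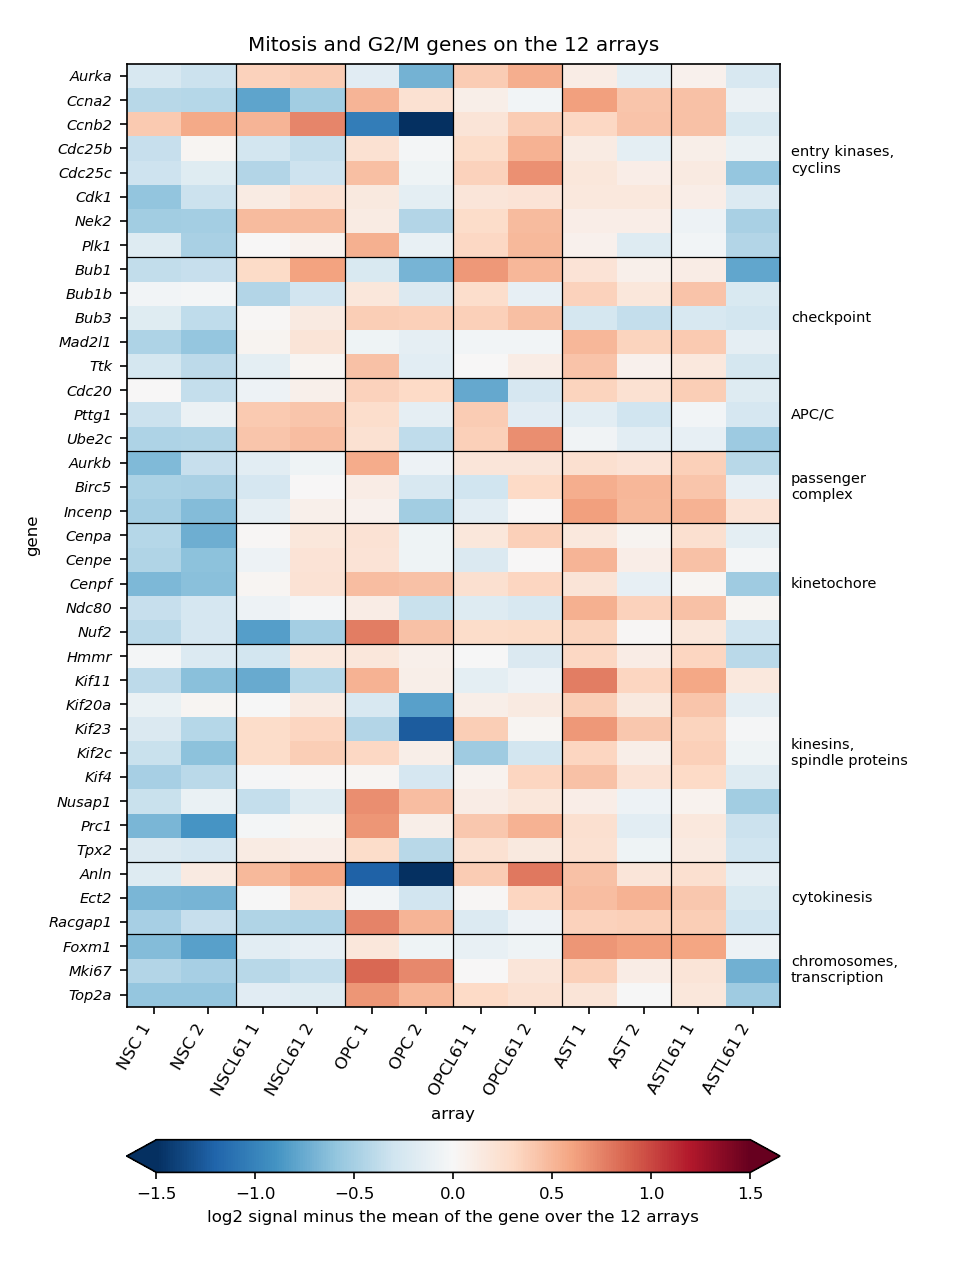
Log2 signal of each of the 39 genes (rows, grouped by role) on the 12 arrays (columns), as the difference from the mean of the gene over the arrays, with red above and blue below it and values past 1.5 drawn at the end of the scale. Ccnb2 and Anln are darkest blue in OPC, and the columns of OPC replicate 2 and ASTL61 replicate 2 are bluer than their partners.

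Mitotic genes were first compared between the HRas-carrying stem cell line, NSCL61, and its parent. A gene passed where the limma p-value, adjusted by Benjamini-Hochberg over all genes tested, was under 0.05. Many mitotic genes rose in NSCL61: 16 of 39 passed upward (41.0%, against 20.7% of all 12835 genes), 0 downward by limma (17.1% of all genes), and 23 did not pass. In either direction 37.8% of all genes passed. At an unadjusted p under 0.05 there were 19 of 39 members, near the share of all genes, 46.3%. The median difference was 0.40 over the members and 0.04 over all genes, and 31 of 39 differences were positive. All rises were under 2-fold, from 0.36 to 0.99 on the log2 scale. The genes that passed came from each of the 8 roles: 3 of 8 entry kinases and cyclins, 3 of 5 checkpoint genes, 2 of 3 of the anaphase-promoting complex group, 1 of 3 passenger complex genes, 3 of 5 kinetochore genes, 2 of 9 kinesins and spindle proteins, 1 of 3 cytokinesis genes and 1 of 3 chromosome and transcription genes.

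Nek2, a centrosomal kinase that separates the spindle poles, had the largest rise. Its log2 signal was 9.18 and 9.20 in NSC, 10.18 and 10.18 in NSCL61, 9.84 and 9.28 in OPC, 9.98 and 10.19 in OPCL61, 9.82 and 9.81 in AST and 9.64 and 9.23 in ASTL61. It was thus lowest on both NSC arrays and near 10.18 on both NSCL61 arrays, a difference of 0.99 ± 0.19 (log2 difference ± SE; 1.98-fold; limma adjusted p = 0.00319). Its other 3 probe sets gave 1.05, 1.01 and 0.33. The set that gave 0.33 had group means of 3.37 to 3.94, below the filter level. The probe set used carries the suffix _s_at, which marks probes shared by several transcripts, as do those used for Bub3 and Pttg1. The sets used for Cdc20, Kif2c, Incenp, Aurkb and Cdc25c carry _x_at, which marks probes that may bind related sequences.

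Ube2c, the ubiquitin-conjugating enzyme of the anaphase-promoting complex, rose by 0.90 ± 0.21 (adjusted p = 0.00905). It measured 11.36 and 11.36 in NSC, 12.23 and 12.28 in NSCL61, 12.04 and 11.43 in OPC, 12.17 and 12.51 in OPCL61, 11.76 and 11.65 in AST and 11.70 and 11.27 in ASTL61. The NSC arrays were lowest but for ASTL61 replicate 2, and the NSCL61 arrays lay within the range of OPCL61. Pttg1, the securin that this complex destroys, rose by 0.61 ± 0.20 (adjusted p = 0.0388), a call lost with quantile normalisation, with averaged probe sets and without any single one of the 4 arrays.

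Among the entry kinases, Cdk1, the kinase that drives mitosis, rose by 0.63 ± 0.15 (adjusted p = 0.00906). Its values were 10.85 and 11.13 in NSC, 11.57 and 11.66 in NSCL61, 11.60 and 11.31 in OPC, 11.63 and 11.65 in OPCL61, 11.61 and 11.60 in AST and 11.54 and 11.24 in ASTL61, so that both NSC arrays were below all others. Aurka, the centrosomal Aurora kinase, rose by 0.64 ± 0.19 (adjusted p = 0.0223). Its second probe set gave -0.05. The group means of that set were only 3.28 to 3.46, below the filter level, so it cannot decide on the rise. Plk1, Ccna2 and Ccnb2, that is the polo kinase, cyclin A2 and cyclin B2, had differences of 0.38, -0.23 and 0.14 and did not pass.

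The checkpoint kinase Bub1 rose by 0.80 ± 0.27 (adjusted p = 0.0394), with 9.72 and 9.74 in NSC, 10.37 and 10.69 in NSCL61, 9.86 and 9.39 in OPC, 10.74 and 10.59 in OPCL61, 10.29 and 10.16 in AST and 10.20 and 9.30 in ASTL61. The arrays of NSC and NSCL61 do not overlap, but its other probe set gave 0.19, and with the mean of its probe sets it no longer passed. Mad2l1, the protein that inhibits Cdc20 at unattached chromosomes, rose by 0.64 ± 0.16 (adjusted p = 0.0130) and Bub3, their partner at the kinetochore, by 0.36 ± 0.11 (adjusted p = 0.0311). Bub1b and Ttk, with -0.33 and 0.27, did not pass.

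At the centromere, the histone variant Cenpa rose by 0.67 ± 0.17 (adjusted p = 0.0128), the kinesin Cenpe by 0.60 ± 0.20 and the large kinetochore protein Cenpf by 0.77 ± 0.18 (adjusted p = 0.00832). Cenpf was at 8.43 and 8.47 in NSC, 9.13 and 9.32 in NSCL61, 9.56 and 9.54 in OPC, 9.34 and 9.42 in OPCL61, 9.30 and 8.98 in AST and 9.12 and 8.57 in ASTL61, and again both NSC arrays were the lowest. Kif2c, a kinesin that depolymerises microtubules at the kinetochore, rose by 0.79 ± 0.18 (adjusted p = 0.00673). It measured 9.08 and 8.80 in NSC, 9.69 and 9.78 in NSCL61, 9.72 and 9.50 in OPC, 8.87 and 9.14 in OPCL61, 9.72 and 9.49 in AST and 9.76 and 9.35 in ASTL61, with NSC and OPCL61 lowest. Prc1, which bundles the central spindle, rose by 0.79 ± 0.22, and Incenp, the scaffold of the passenger complex, by 0.55 ± 0.19. The call for Incenp was lost with no filter, with averaged probe sets and without any single one of the 4 arrays. Ndc80 and Nuf2, which form the microtubule-binding complex, were at 0.25 and -0.34 and did not pass.

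Ect2, the exchange factor that switches on RhoA for cytokinesis, rose by 0.80 ± 0.20 (adjusted p = 0.0123). It had 9.48 and 9.46 in NSC, 10.16 and 10.38 in NSCL61, 10.12 and 9.87 in OPC, 10.17 and 10.48 in OPCL61, 10.62 and 10.68 in AST and 10.57 and 9.93 in ASTL61. Foxm1, the transcription factor of the G2/M programme, rose by 0.59 ± 0.19 (adjusted p = 0.0363). Its values were 7.25 and 7.09 in NSC, 7.74 and 7.78 in NSCL61, 8.07 and 7.84 in OPC, 7.78 and 7.84 in OPCL61, 8.55 and 8.51 in AST and 8.49 and 7.82 in ASTL61, and the NSC arrays lay under all the others. With the mean of its probe sets Foxm1 no longer passed. Mki67, the proliferation antigen Ki-67, did not pass. It was at 9.90 and 9.84 in NSC and 9.92 and 9.98 in NSCL61, a difference of 0.08 ± 0.24 (adjusted p = 0.829).

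The count in NSCL61 depended on single arrays. Fewer members passed without any 1 of the 4 arrays, while the median difference stayed between 0.36 and 0.45. Such a fit rests on fewer arrays for every gene, and the share of all genes passing in it is not given here. Nek2 and Kif2c passed in each of these 4 cases, and Aurka, Bub1, Cenpe, Incenp, Foxm1 and Pttg1 in none.

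For the oligodendrocyte precursors the question was again how the HRas-carrying line, OPCL61, differed from its parent. In OPCL61, 8 of 39 genes rose (20.5%, against 24.5% of all genes), 4 fell (10.3%, against 23.9%) and 27 did not pass, so that 12 of 39 changed in all, against 48.5% of all genes. Neither share exceeded that of all genes, and the median difference was 0.07 over the members and 0.05 over all genes. Ccnb2 and Anln had by far the largest differences of the set, and Kif23, Bub1, Aurka, Kif20a, Ube2c and Nek2 rose less. Cdc20, Racgap1, Mki67 and Kif2c fell. OPC and OPCL61 share no array with NSC and NSCL61, and 4 genes, Aurka, Bub1, Nek2 and Ube2c, rose in both comparisons, which is 25% of the 16 and 50% of the 8. Of all genes tested, 1218 rose in both, which is 45.8% of those that rose in NSCL61 and 38.7% of those that rose in OPCL61.

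Ccnb2, the Golgi-associated B cyclin, was at 10.26 and 10.44 in NSC, 10.39 and 10.60 in NSCL61, 8.83 and 7.19 in OPC, 10.07 and 10.25 in OPCL61, 10.18 and 10.30 in AST and 10.31 and 9.64 in ASTL61. Both OPC arrays lay below all other arrays, and they also differed from each other by 1.64. The rise in OPCL61 was 2.15 ± 0.43 (4.42-fold; adjusted p = 0.0026), and it was 1.33 without OPC replicate 2 and 2.97 without OPC replicate 1. The gene had a single probe set.

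Anln, anillin, the scaffold of the contractile ring, measured 11.06 and 11.39 in NSC, 11.73 and 11.83 in NSCL61, 10.03 and 9.56 in OPC, 11.63 and 12.04 in OPCL61, 11.69 and 11.43 in AST and 11.49 and 11.12 in ASTL61. The OPC arrays were again the lowest, and the OPCL61 arrays lay on either side of NSCL61. It rose by 2.04 ± 0.22 (4.11-fold; adjusted p = 5.87e-05), with 0.75 on its other probe set. Kif23, the kinesin of the central spindle that recruits the cytokinesis machinery, was at 9.37 and 9.15 in NSC, 9.85 and 9.90 in NSCL61, 9.14 and 8.33 in OPC, 9.95 and 9.61 in OPCL61, 10.23 and 9.98 in AST and 9.91 and 9.56 in ASTL61, and rose by 1.04 ± 0.25 (adjusted p = 0.00708). A second probe set of Kif23 gave 1.38 and the third 0.00. The group means of the third were 3.52 to 4.34, below the filter level, so it cannot decide on the rise.

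Kif20a, a kinesin that carries the passenger complex to the midzone, was at 9.93 and 10.05 in NSC, 10.02 and 10.15 in NSCL61, 9.78 and 9.21 in OPC, 10.11 and 10.16 in OPCL61, 10.40 and 10.17 in AST and 10.44 and 9.89 in ASTL61 and rose by 0.64 ± 0.22 (adjusted p = 0.0354). It no longer passed without OPC replicate 2, when the difference was 0.35, nor without either OPCL61 array. Aurka rose by 0.90 ± 0.19 (adjusted p = 0.00312), from 10.10 and 9.56 in OPC to 10.65 and 10.81 in OPCL61. Bub1 rose by 1.04 ± 0.27 (adjusted p = 0.00979), but its other probe set gave -0.73, so that its direction differed between probe sets. Ube2c at 0.60 ± 0.21 and Nek2 at 0.53 ± 0.19 passed with adjusted p of 0.0405 and 0.0453. Without OPC replicate 2 they were at 0.30 and 0.25. Nek2 no longer passed with quantile normalisation, no filter or averaged probe sets. In a fit to the compared arrays alone neither Ube2c nor Nek2 passed.

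Cdc20, the activator of the anaphase-promoting complex, was at 11.54 and 11.18 in NSC, 11.46 and 11.62 in NSCL61, 11.88 and 11.83 in OPC, 10.76 and 11.29 in OPCL61, 11.87 and 11.76 in AST and 11.90 and 11.35 in ASTL61. Both OPCL61 arrays were below both OPC arrays, and the gene fell by 0.83 on the log2 scale (SE 0.22; adjusted p = 0.0121), with -0.70 and -0.60 on its other probe sets. Racgap1, the partner of Kif23 in the centralspindlin complex, was at 9.73 and 9.88 in NSC, 9.78 and 9.76 in NSCL61, 10.98 and 10.75 in OPC, 10.03 and 10.16 in OPCL61, 10.58 and 10.59 in AST and 10.60 and 9.93 in ASTL61. It fell by 0.77 (SE 0.19; adjusted p = 0.00925), while Kif23 rose.

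Mki67 was at 9.90 and 9.84 in NSC, 9.92 and 9.98 in NSCL61, 11.20 and 11.05 in OPC, 10.34 and 10.51 in OPCL61, 10.69 and 10.44 in AST and 10.52 and 9.62 in ASTL61, highest on the OPC arrays, and fell in OPCL61 by 0.70 (SE 0.24; adjusted p = 0.0380). With each array centred on its median it no longer passed, nor did it without any single one of the 4 arrays. Kif2c fell by 0.60 (SE 0.18; adjusted p = 0.0190). Cdk1 at 0.19 ± 0.15 and Foxm1 at -0.14 ± 0.19 did not pass (adjusted p = 0.571 for Foxm1). Top2a, the topoisomerase that untangles sister chromatids, at -0.32 ± 0.20, and the 5 kinetochore and 3 passenger complex genes did not pass either.

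Fewer than 12 members passed without any 1 of the 4 arrays. Each such fit rests on fewer arrays for every gene, and the share of all genes passing in it is not given here. Ccnb2, Anln, Kif23 and Aurka passed in all 4 cases. The median difference was 0.25 without OPC replicate 1 and -0.14 without OPC replicate 2.

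**Figure D3:**
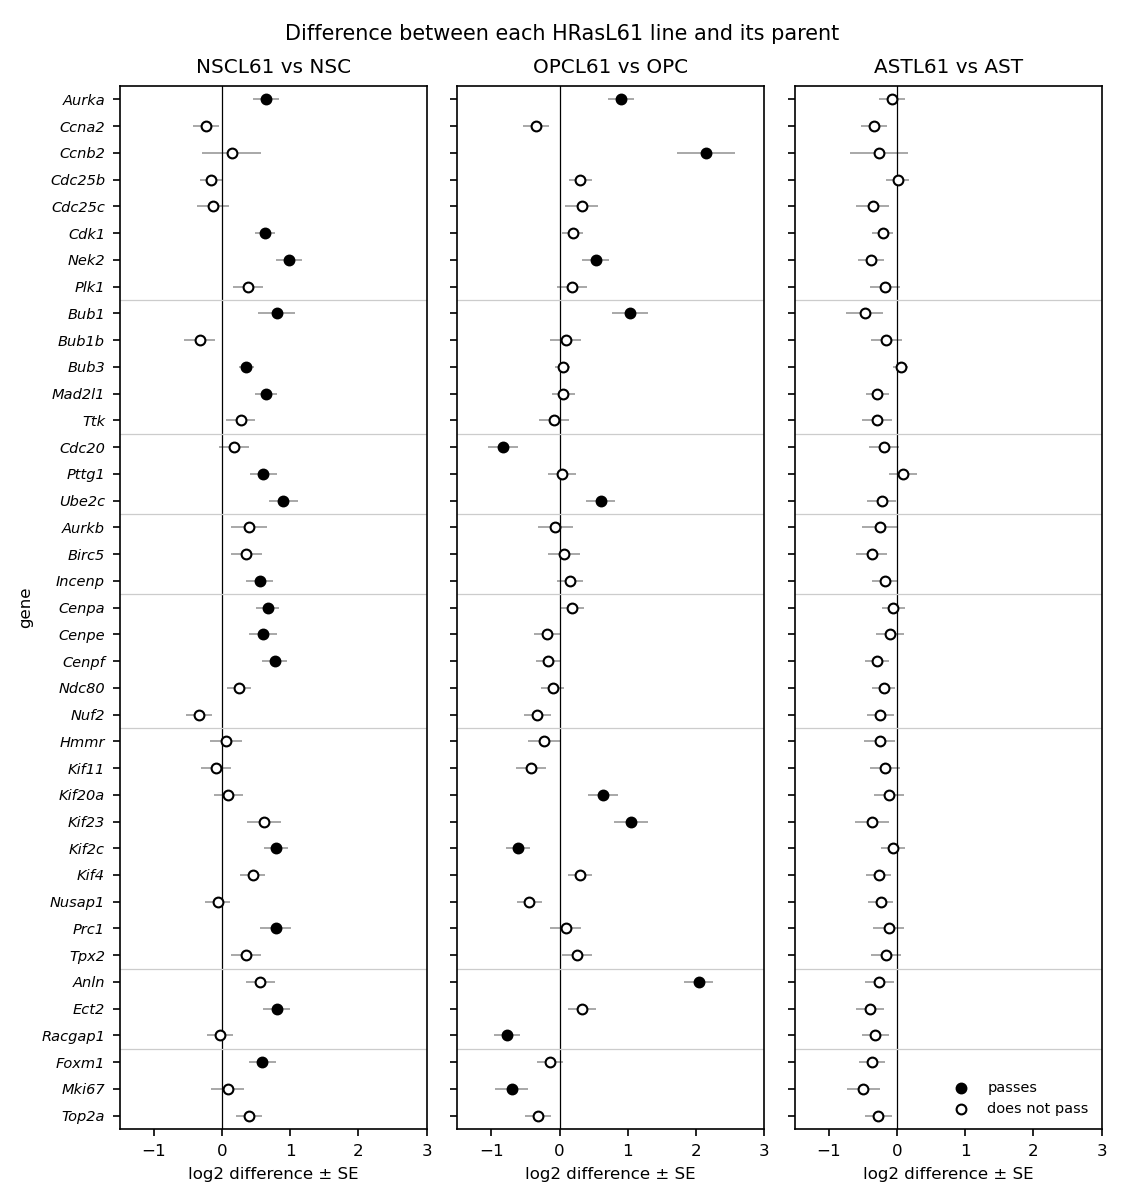
Log2 difference between each HRasL61 line and its parent (horizontal axes, ± SE of the moderated fit) for the 39 genes (vertical axis, grouped by role), with filled points where the adjusted p was under 0.05. In NSCL61 16 filled points lie right of 0, in OPCL61 8 lie right and 4 left with Ccnb2 and Anln past 2, and in ASTL61 none is filled.

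In the astrocyte line ASTL61 no member passed the test against AST by limma: 0 of 39 passed in either direction, 0 of 39 had an unadjusted p under 0.05, and 0.0234% of all genes passed (7.33% at an unadjusted p under 0.05). The median difference was -0.24 against 0.00 over all genes, and 36 of 39 differences were negative. Mki67 was at 10.69 and 10.44 in AST and 10.52 and 9.62 in ASTL61, a difference of -0.49 ± 0.24 (adjusted p = 0.721). Foxm1 was at 8.55 and 8.51 in AST and 8.49 and 7.82 in ASTL61, with -0.37 ± 0.19 (adjusted p = 0.741). In both genes ASTL61 replicate 1 lay close to the AST arrays and replicate 2 below them. Without ASTL61 replicate 2 the median difference was 0.02, and without ASTL61 replicate 1 it was -0.49.

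The 3 changes were then compared with each other by interaction terms. In the astrocyte line the change was lower than in the stem cell line for 9 of 39 genes (23.1%, against 12.9% of all genes; 25.3% in either direction) and higher for 0 by limma (12.4%), with 18 of 39 at an unadjusted p under 0.05 (37.9% of all genes). They were Nek2, Bub1, Ect2, Ube2c, Cenpf, Foxm1, Mad2l1, Kif2c and Cdk1, by 0.84 to 1.37 on the log2 scale. That count fell without most single arrays and rose without ASTL61 replicate 1. These fits rest on fewer arrays for every gene, and the share of all genes passing in them is not given here. The precursor line's change exceeded that of the stem cell line for Ccnb2 and Anln (5.13% of members, against 18% of all genes) and was lower for Kif2c, Cdc20 and Cenpf (7.69%, against 19.9%), 5 genes in all (37.9% of all genes). Fewer than these 5 passed without NSCL61 replicate 2, NSC replicate 2 or NSCL61 replicate 1. Kif2c moved in opposite directions, up by 0.79 in NSCL61 and down by 0.60 in OPCL61, and the difference of the changes was -1.40 ± 0.25 (adjusted p = 0.0021). With averaged probe sets Bub1 and Kif2c no longer passed between the astrocyte and stem cell lines, nor did Bub1 between the precursor and astrocyte lines. Against the astrocyte line, 6 genes had a higher change in the precursor line (15.4%, against 17.1% of all genes) and 0 a lower one by limma (18.3%, and 35.4% in either direction). The 6 were Ccnb2, Anln, Bub1, Kif23, Aurka and Nek2. More passed without ASTL61 replicate 1 and fewer without OPC replicate 2, and without ASTL61 replicate 2 members passed in both directions.

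Before HRasL61, AST had higher levels of mitotic genes than NSC. The contrast asks how the cultures labelled AST and NSC differed, whose markers went partly against these names. The parents also differed in serum and growth factors, so medium and cell type cannot be told apart in any comparison of parents. By limma, 19 of 39 genes were higher in AST (48.7%, against 15.4% of all genes) and 0 lower (15.0%, and 30.4% in either direction). An unadjusted p under 0.05 was found for 23 of 39 (40.6% of all genes). The median difference was 0.62, against 0.02 over all genes, and 36 of 39 were positive. By role, 3 of 8 entry genes, 1 of 5 checkpoint genes, 0 of 3 of the anaphase-promoting complex group, 2 of 3 passenger complex genes, 4 of 5 kinetochore genes, 5 of 9 spindle genes, 2 of 3 cytokinesis genes and 2 of 3 of the last group passed.

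Foxm1 differed most, by 1.36 ± 0.19 (2.57-fold; adjusted p = 9.77e-04), with all 4 arrays apart as given above. Ect2 was higher by 1.18 ± 0.20 (adjusted p = 0.0026). Incenp was at 10.22 and 10.08 in NSC, 10.59 and 10.80 in NSCL61, 10.79 and 10.21 in OPC, 10.57 and 10.73 in OPCL61, 11.34 and 11.21 in AST and 11.25 and 10.95 in ASTL61, a difference of 1.13 ± 0.19 between AST and NSC (adjusted p = 0.00251). Kif11, the kinesin that pushes the spindle poles apart, was at 8.37 and 8.14 in NSC, 8.0 and 8.33 in NSCL61, 9.28 and 8.86 in OPC, 8.61 and 8.69 in OPCL61, 9.54 and 9.08 in AST and 9.34 and 8.92 in ASTL61, with AST higher by 1.05 ± 0.22 (adjusted p = 0.00626). NSC and NSCL61 arrays were the lowest for Kif11. Birc5, the survivin subunit of the passenger complex, was higher by 1.00 ± 0.23, Mad2l1 by 0.95 ± 0.16 and Ccna2 by 0.93 ± 0.19. Cdk1 was higher by 0.62 ± 0.15 (adjusted p = 0.0130), and Mki67, at 0.70 ± 0.24, did not pass (adjusted p = 0.0557). Fewer than 19 passed without any 1 of the 4 arrays, in fits given without the share of all genes, and the median difference stayed between 0.56 and 0.74. Foxm1, Ect2, Incenp, Mad2l1 and Ccna2 passed in all 4 cases.

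OPC were also above NSC in many of these genes, with 2 marked exceptions. Of the 39, 16 were higher in OPC (41.0%, against 27.2% of all genes), 2 lower (5.13%, against 24.3%) and 21 did not pass, against 51.5% of all genes passing in either direction, with a median of 0.46 against -0.01 over all genes. Mki67 led with 1.26 ± 0.24 (2.40-fold; adjusted p = 0.00189). Prc1 was at 9.31 and 9.11 in NSC, 9.97 and 10.03 in NSCL61, 10.66 and 10.08 in OPC, 10.40 and 10.52 in OPCL61, 10.24 and 9.85 in AST and 10.16 and 9.68 in ASTL61 and higher in OPC by 1.16 ± 0.22 (adjusted p = 0.00194). Top2a was at 10.55 and 10.54 in NSC, 10.95 and 10.93 in NSCL61, 11.78 and 11.62 in OPC, 11.42 and 11.35 in OPCL61, 11.32 and 11.12 in AST and 11.30 and 10.59 in ASTL61, with OPC highest and NSC lowest, a difference of 1.16 ± 0.20 (adjusted p = 9.39e-04).

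Cenpf and Racgap1 were higher in OPC by 1.10 ± 0.18 and 1.06 ± 0.19, and Nuf2 by 0.94 ± 0.19. Kinetochore genes passed in 4 of 5 cases, and all 3 of Mki67, Top2a and Foxm1 passed. The exceptions were Ccnb2, lower in OPC by a log2 difference of -2.34 ± 0.43 (adjusted p = 0.00142), and Anln, at -1.43 ± 0.22 (adjusted p = 4.41e-04). In the same OPC arrays Mki67 and Top2a were at their highest and Ccnb2 and Anln at their lowest. The count of 18 fell without OPC replicate 1 and rose without OPC replicate 2, and the median difference was 0.25 and 0.65. The share of all genes passing in these fits is not given here.

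Set against AST, OPC had 2 genes higher (5.13%, against 26.1% of all genes) and 9 lower (23.1%, against 25.6%; 51.7% in either direction), shares no larger than those of all genes. Bub3, part of the complex by which the checkpoint inhibits Cdc20, was at 11.49 and 11.28 in NSC, 11.69 and 11.80 in NSCL61, 12.04 and 12.02 in OPC, 12.03 and 12.12 in OPCL61, 11.41 and 11.31 in AST and 11.43 and 11.39 in ASTL61. OPC and OPCL61 formed its highest groups, and OPC exceeded AST by 0.67 ± 0.11 (adjusted p = 8.10e-04). Its other 4 probe sets gave 0.82, 0.76, 0.10 and 0.50. The sets that gave 0.10 and 0.50 had group means of at most 4.16 and 4.01, below the filter level. The set that gave 0.76 was near that level in OPC, at 5.20, and below it in AST, at 4.44. Nusap1, a microtubule-bundling protein of the spindle, was at 9.48 and 9.71 in NSC, 9.45 and 9.61 in NSCL61, 10.51 and 10.27 in OPC, 9.92 and 9.98 in OPCL61, 9.91 and 9.73 in AST and 9.87 and 9.29 in ASTL61, and higher in OPC by 0.57 ± 0.19 (adjusted p = 0.0284). Ccnb2, Anln, Kif23 and Kif20a were lower in OPC by log2 differences of -2.23, -1.77, -1.37 and -0.79, and Incenp, Ect2, Foxm1, Ndc80 and Mad2l1 by -0.78 to -0.52. Of the 4 arrays, leaving out OPC replicate 2 or AST replicate 1 lowered the count of 11, in fits given without the share of all genes. Bub3, Ccnb2, Anln and Kif23 passed in all 4 cases.

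**Figure D4:**
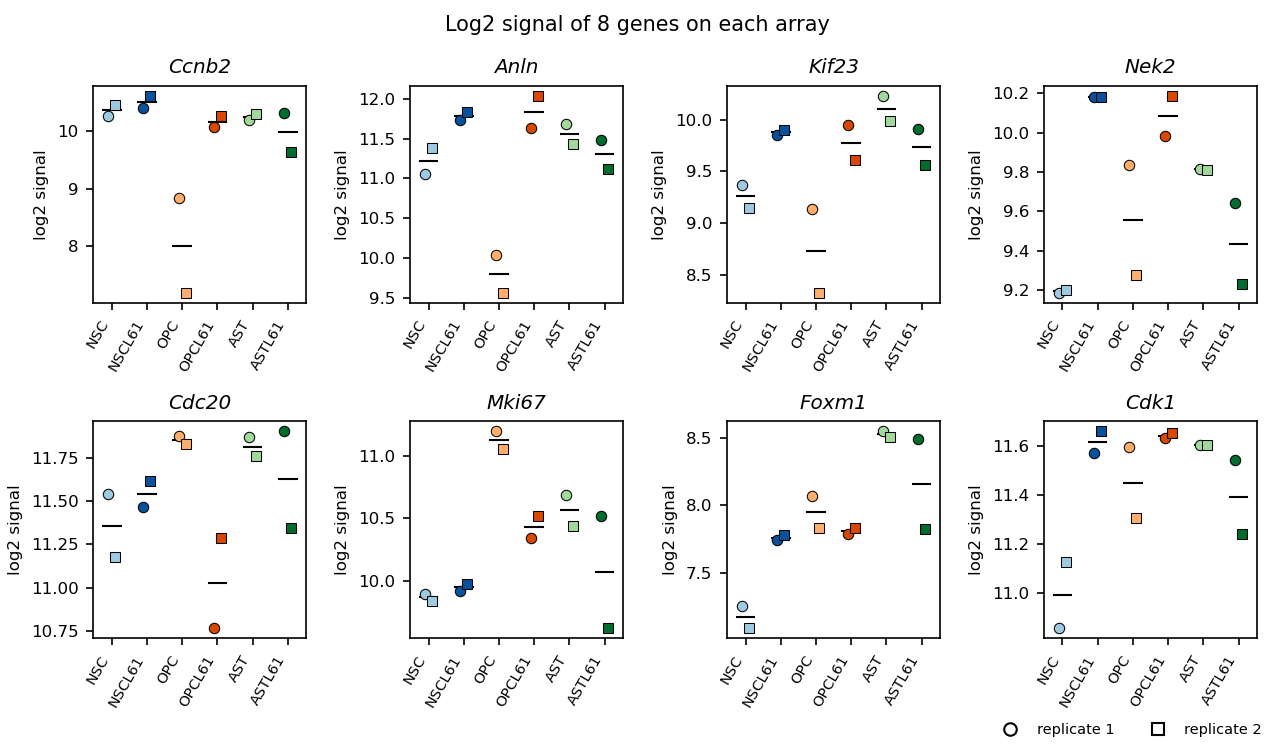
Log2 signal (vertical axes, each with its own range) of 8 genes on the 12 arrays by group (horizontal axes), with circles for replicate 1, squares for replicate 2 and bars for the mean of both. Ccnb2 and Anln are lowest in OPC, where Mki67 is highest, and Nek2, Foxm1 and Cdk1 are higher in NSCL61 than in NSC.

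Between the lines, the differences were few. OPCL61 exceeded NSCL61 in 4 genes (10.3%, against 13.3% of all genes), Nuf2, Cdc25c, Cdc25b and Ccna2, by 0.68 to 0.95, and was lower in Kif2c (2.56%, against 13.4%). Cdc25b and Cdc25c are the phosphatases that activate Cdk1. ASTL61 was above NSCL61 in Kif11, Ccna2 and Nuf2 (7.69%, against 16.1%) and below it in Bub1, Ube2c, Nek2 and Bub3 (10.3%, against 16.6%, and 32.7% in either direction). The calls for Bub1 and Bub3 were lost with median centring, no filter, averaged probe sets and a fit to those arrays alone. On its other probe set Bub1 had means of 6.72 in NSCL61 and 6.77 in ASTL61. OPCL61 was above ASTL61 in 8 genes (20.5%, against 18.9%), led by Bub1 at 0.91 ± 0.27 (with means of 6.39 in OPCL61 and 6.77 in ASTL61 on its other probe set, and no call with averaged probe sets or in a fit to those arrays alone) and Ube2c at 0.86 ± 0.21, and lower in Kif2c (2.56%, against 17.7%; 36.6% in either direction). These counts turned on single arrays, in fits given without the share of all genes. Without ASTL61 replicate 2, the majority direction turned both between ASTL61 and NSCL61 and between OPCL61 and ASTL61. Fewer genes passed between NSCL61 and either other line without NSCL61 replicate 1. Only Bub3, between OPCL61 and ASTL61, passed whichever array was left out. On the next brightest probe set of Bub3, however, the means were 8.67 in OPCL61 and 8.65 in ASTL61. Ccnb2 and Anln, the genes that set OPC apart, differed between OPCL61 and NSCL61 by -0.34 and 0.05 and did not pass.

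Other genes of mitosis were taken from a list of 127, of which 125 were tested. In NSCL61, 26 rose (20.8%, against 20.7% of all genes) and 6 fell (4.8%, against 17.1%). The list's share of rises was thus that of all genes, while its share of falls was smaller. The median difference was 0.24 over the list and 0.04 over all genes. The largest rises were those of Depdc1a by 1.61 ± 0.27, Cep55, the midbody protein that recruits the abscission machinery, by 1.29 ± 0.33, and the spindle protein Spag5 by 1.20 ± 0.22. The largest falls were those of Psrc1 at -1.06, Cenpm at -0.85 and the kinase Nek7 at -0.62. In OPCL61, 20 rose (16.0%, against 24.5% of all genes) and 18 fell (14.4%, against 23.9%), shares below those of all genes, led by Cep55 at 2.78 ± 0.33 (adjusted p = 1.29e-04), Mad1l1 at 1.37 ± 0.16 and Wapl, which releases cohesin, at 1.31 ± 0.19, and by Psrc1 at -2.09, Cenpm at -1.67 and Mad2l2 at -1.51.

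Cep55 was at 9.27 and 8.28 in OPC and at 11.33 and 11.79 in OPCL61, so its OPC arrays lay below both OPCL61 arrays. Its values were 9.37 and 8.97 in NSC, 10.33 and 10.59 in NSCL61, 10.52 and 10.09 in AST and 10.23 and 9.68 in ASTL61. In ASTL61 0 of 125 passed by limma. Of the same 125, 55 were higher and 3 lower in AST than in NSC (44.0% and 2.40%, against 15.4% and 15.0% of all genes), and 47 were higher and 7 lower in OPC than in NSC (37.6% and 5.60%, against 27.2% and 24.3%).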

How the data were processed

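Total RNA, 5 µg per sample, was labelled with biotin by in vitro transcription, per the labels' protocols, and measured on 12 arrays. The values are log2 signals per probe set, deposited by the authors; how they corrected background, summarised and normalised is not given in the sources used here, and array medians lay between 5.16 and 5.21. The number of arrays limits the precision. Scale was taken from the range of values, 2.14 to 14.33. Gene names came from a platform table, updated through Entrez identifiers to RefSeq (GRCm38.p6).

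A probe set was kept where a group mean exceeded the median of all values, 5.18. A gene took its kept single-symbol probe set with the highest mean, leaving 12835 genes. All 12 arrays were fitted as 6 group means in limma 3.58.1 (R 4.3.3, 9.30 total degrees of freedom), with 2-sided p-values adjusted by Benjamini-Hochberg over all genes and a threshold of 0.05. The script was tested on simulated data. The members and lists were chosen with earlier results of these data known. Members could all be named; those given with every array value are the up to 4 largest differences each way past the threshold in the comparisons of lines with parents and of parents, plus Mki67, Cdk1 and Foxm1. Up to 3 other mitosis genes each way are named, and Anln's promoter was chosen after its values were seen, as was the choice of 5 of the promoters with an element. Alternatives were quantile normalisation, median centring, no filter or a 75th percentile filter (7.56), a fold change of at least 2, averaged probe sets, the replicate number as a block, a trended robust prior, a fit to the compared arrays alone and leaving out each array.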

Additional observations from a re-analysis of the deposited data

Results flagged for a closer look

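The change with HRasL61 differed between lines, by an interaction term in limma, for these members. Between the precursor and the stem cell line, the difference of the changes was -1.40 for Kif2c, -1.01 for Cdc20, -0.94 for Cenpf, 1.48 for Anln and 2.00 for Ccnb2. Between the astrocyte and the stem cell line it was -1.37 for Nek2, -1.28 for Bub1, -1.20 for Ect2, -1.12 for Ube2c, -1.07 for Cenpf, -0.97 for Foxm1, -0.93 for Mad2l1, -0.85 for Kif2c and -0.84 for Cdk1. Between the precursor and the astrocyte line it was 0.91 for Nek2, 0.97 for Aurka, 1.41 for Kif23, 1.51 for Bub1, 2.30 for Anln and 2.41 for Ccnb2. With averaged probe sets both calls for Bub1 were lost, and that for Kif2c between the astrocyte and the stem cell line. The other probe set of Bub1 gave -0.73 in OPCL61 against OPC and -0.64 in ASTL61 against AST. These comparisons of changes share lines with each other. Kif2c and Anln in the first, Nek2 in the second and Ccnb2, Kif23 and Anln in the third passed whichever array was left out.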

How the results depend on the processing

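The cause of each shift given here was not tested, apart from the stricter rule of a fold change of at least 2, which by construction keeps fewer genes. Under that rule the members passing were 0 in NSCL61 against NSC, 4 in OPCL61 against OPC, 7 in OPC against NSC, 5 in AST against NSC, 3 in OPC against AST, 0 in each of the 3 comparisons between lines and 5 for the change in AST minus that in NSC. In ASTL61 against NSCL61 the majority direction turned with median centring (5 members), no filter (5) and averaged probe sets (6). Averaged probe sets gave 9 for the change in OPC minus that in NSC. A fit to the compared arrays alone gave 11 there, 14 for the change in AST minus that in NSC and 1 for OPCL61 against ASTL61.

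Leaving out each array in turn takes 1 group to a single array assumed to vary like the others. With every array left out, the count fell for NSCL61 against NSC, OPCL61 against OPC, AST against NSC and OPCL61 against NSCL61. For the other comparisons the highest count matched or exceeded the main count. The share of all genes passing in these fits is not given here, so the counts do not single out the members.

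With the replicate number as a block, 17, 12 and 0 members passed in NSCL61, OPCL61 and ASTL61 against their parents, and no count of the 12 comparisons moved beyond 1.5 times. Deviations of same-numbered arrays correlated between -0.20 and 0.10, so the numbers were taken as names only. For single genes no direction reversed; 135 of 1134 values under other settings and 240 of 584 with an array left out lost significance. Precision was limited by 2 arrays a group. Counts of members under the other settings are likewise given without the share of all genes passing there.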
